A study of Homo sapiens with 6 samples.

Results

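The genes described here are 42 human genes of the DNA replication origin and fork: the factors that load and activate the replicative helicase, the sliding clamp and its loaders, the polymerases, the enzymes that join lagging-strand fragments, the enzymes that supply deoxynucleotides, and chromatin and checkpoint factors that work at the fork. They were picked out by gene name from the 58735 genes of the count table, and each name matched 1 row. RNA came from Ovcar8 cells, a human ovarian cancer line of the high-grade serous type, grown in RPMI-1640 that contained 5% fetal bovine serum (FBS). In 3 libraries the cells stayed in 5% FBS for 48 h, and in the other 3 they were kept without serum for the same 48 h. The comparison asks how the transcripts of the replication machinery differed between serum-starved and serum-fed cells, and fold changes are starved relative to FBS. All 6 libraries come from a single cell line, and the labels do not say whether the replicates were separate cultures, so p-values measure the spread between these samples, which may be technical. The series holds RNA levels only, with no count of cells in S phase.

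Replication is licensed in G1, when the origin recognition complex (ORC), CDC6 and CDT1 load the ring-shaped MCM2-7 helicase onto DNA in an inactive form. Geminin, encoded by GMNN, binds CDT1 and blocks loading after S phase has begun. In S phase CDC45 and the 4 GINS subunits join MCM2-7 to form the active helicase, MCM10 assists its activation, and the polymerases follow on PCNA, the ring that the RFC clamp loader places on DNA. Many of these genes are transcribed at the G1-to-S boundary under E2F factors, and in normal cells serum withdrawal commonly leads to arrest in G1 with low levels of E2F target transcripts.

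To show the E2F consensus where these promoters hold it, the stretches around it were read from RefSeq promoters (GRCh38.p14, 250 bases before to 50 bases after each start). The consensus was searched on both strands as TTTCCCGC, TTTCGCGC, TTTGCCGC and TTTGGCGC, and overlapping matches were joined. The 6 members with a match before the start and the highest level per gene length are printed 5′ to 3′ on the gene's strand, and capitals mark the match, which reads as the reverse complement where it lies on the opposite strand.
MCM7 (chr7:100101566-100101595, minus strand): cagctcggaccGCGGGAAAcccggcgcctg
PCNA (chr20:5126663-5126692, minus strand): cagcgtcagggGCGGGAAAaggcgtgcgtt
CDT1 (chr16:88803743-88803772, plus strand): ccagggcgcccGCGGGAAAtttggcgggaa
MCM3 (chr6:52284898-52284927, minus strand): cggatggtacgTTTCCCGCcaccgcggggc
GINS2 (chr16:85688967-85688996, minus strand): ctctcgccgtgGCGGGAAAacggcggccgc
MCM6 (chr2:135876513-135876542, minus strand): ttggtcaggTTTGGCGCGAAAtctccagct
The printed match began 31 bases before the start in GINS2, 35 in CDT1, 59 in PCNA, 90 in MCM6, 174 in MCM3 and 187 in MCM7. MCM7 had a further match 9 bases before its start, MCM6 another 152 bases before, and MCM3 one that spans its start. In MCM6 the capitals hold TTTGGCGC and, overlapping it on the other strand, TTTCGCGC. Of the 42 members, 37 had a promoter entry (51 promoters), while MCM4, MCM5, GINS4, DSCC1 and POLD3 had none. A match stood in 22 of the 51 member promoters (43.1%), against 3.32% of all 35116 promoters and 4.87% of the 14631 promoters of genes tested. By sub-complex, matches were found in 4 of 4 MCM2-7 genes with an entry, 3 of 6 licensing genes, 3 of 5 helicase activation genes, 4 of 6 polymerase and primase genes, 2 of 5 clamp and loader genes, 1 of 2 Okazaki fragment genes, 2 of 5 nucleotide supply genes, 1 of 3 chromatin genes and in CLSPN. The median log2 fold change was -0.04 in the 21 members with a match and -0.08 in the 16 without. With the correction for GC content and gene length given below, these medians were 0.06 and -0.04.

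The libraries held 16379416 to 19558484 counts, and the lowest count of any member in any library was 52. The epithelial markers KRT7, KRT8 and KRT18 were abundant and PAX8 lay at 59.4 to 86.1 CPM (TMM-normalized counts scaled to a common library total), whereas MUC16 was at 0, KRT19 had 5 counts in all and EPCAM, CDH1 and WT1 were at most 3.96 CPM in every library. The 10 markers of leukocytes, endothelium and fibroblasts summed to 1.93 to 2.79 CPM with FBS and to 3.51 to 6.39 CPM without serum. Of these markers VWF was at 0.26 to 0.477 and 1.32 to 4.21 CPM, and CD3E and DCN were at 0. The members together summed to 5389 to 6351 CPM with FBS and 5096 to 6932 CPM without. The part of these markers in the results was not tested. The libraries also differed with transcript GC content inside each group, and those values stand with the members below.

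No member of any sub-complex passed the test, and the groups overlapped for most of them. With edgeR's quasi-likelihood test, 0 of 42 members had an adjusted p under 0.05, where 0.283% of the 13772 genes tested did; DESeq2 and limma-voom also gave 0. The smallest edgeR adjusted p of a member was 0.356, for ORC6. At an unadjusted p under 0.05 there were 2 members, ORC6 and POLE, or 4.76%, against 10.4% of all genes. The groups did not overlap for 4 members (9.52%), namely ORC6, MCM3, CDC45 and POLE, against 17.7% of all genes. Both shares lie below the background. The log2 fold changes of the 42 members ran from -0.85 to 0.77, with 19 above and 23 below 0 and a median of -0.04, beside a median of -0.02 over all genes. A bulk library cannot tell fewer cells in S phase from less RNA per cell.

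The intervals show which sizes the 6 libraries leave room for. The 95% interval of the log2 fold change stayed between -1 and 1, that is within a 2-fold change either way, for 30 of 42 members (71.4%) and for 30.7% of all genes tested. Its median half-width was 0.66 for the members and 0.81 for all genes. For the other 12 members, among them ORC2, ORC6, RFC3, DSCC1, POLE and POLE2, a 2-fold change lay inside the interval.

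**Figure D1:**
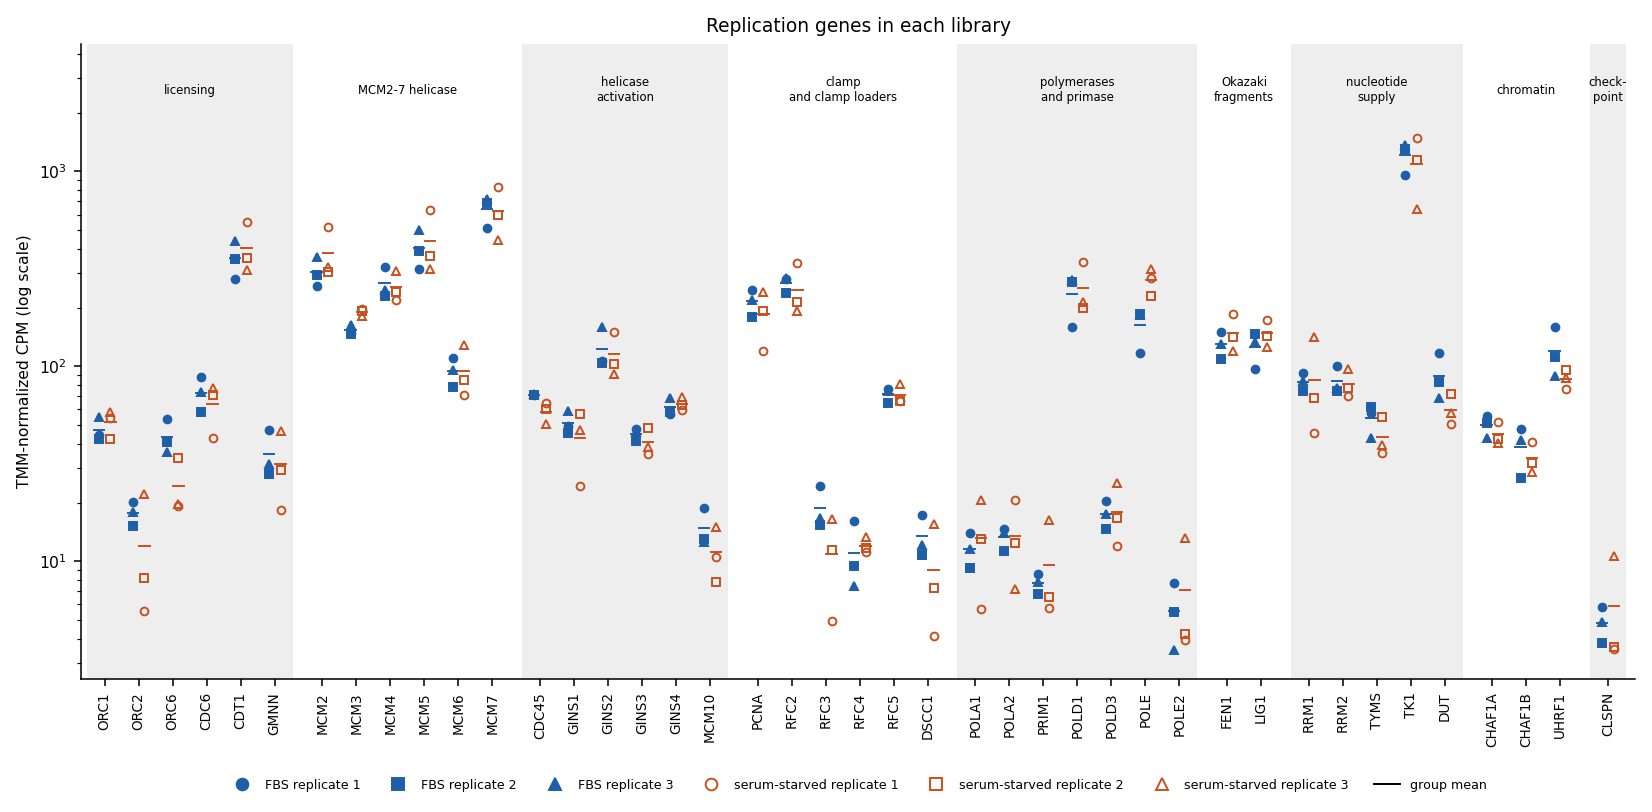
TMM-normalized CPM of the 42 genes on a log axis, grouped by sub-complex, with 1 point per library (blue filled, FBS; orange open, serum-starved; marker shape gives the replicate) and a short line at each group mean. The blue and orange points are separate for ORC6, MCM3, CDC45 and POLE and overlap in the other 38 genes.

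**Figure D2:**
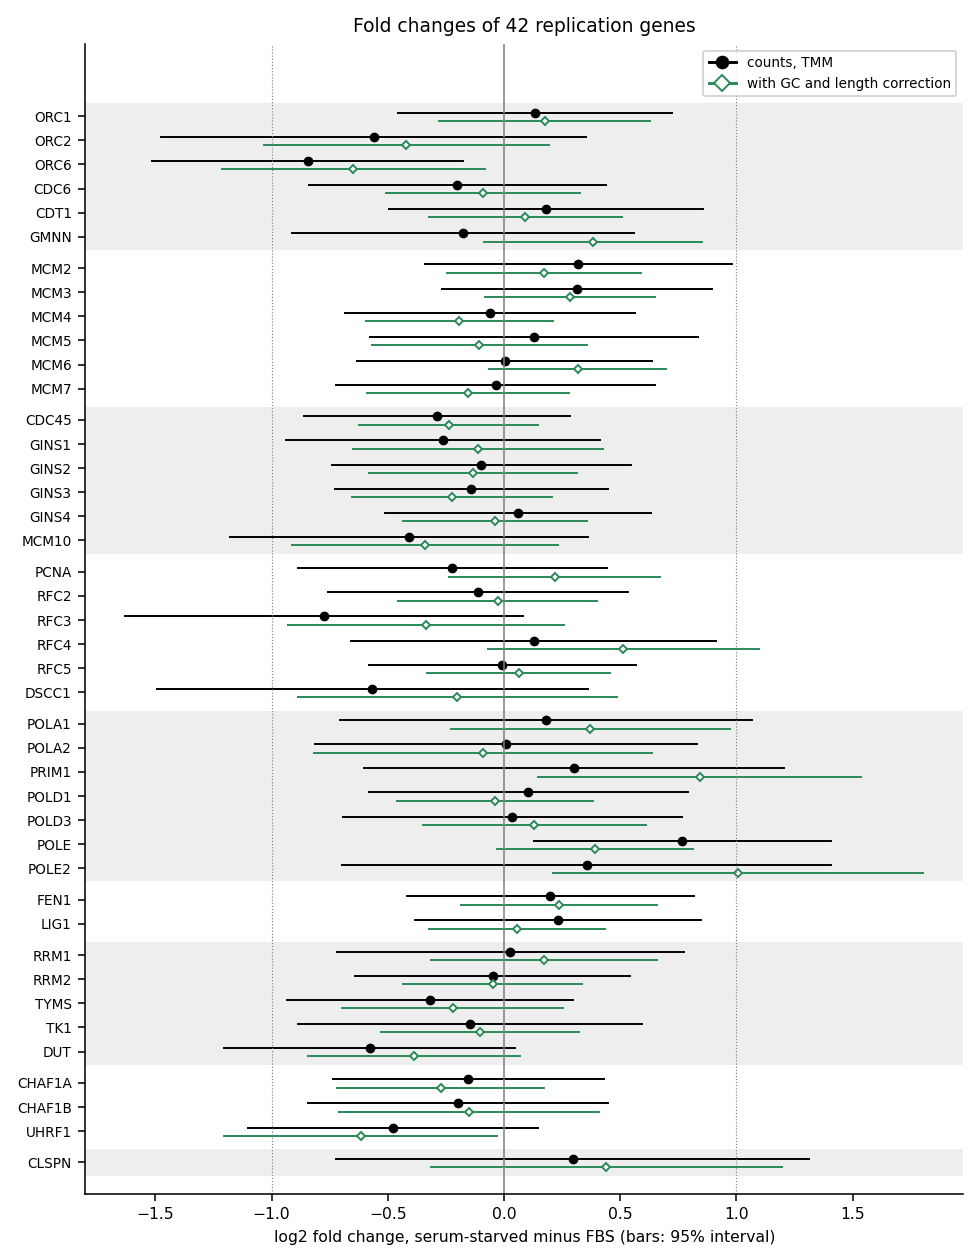
Log2 fold change of each gene (serum-starved minus FBS) with its 95% interval, from TMM-normalized counts (black) and after correcting each library for GC content and length (green); dotted lines mark -1 and 1. Black points lie between -0.85 for ORC6 and 0.77 for POLE.

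Among the licensing factors, ORC6 was lower without serum in every library. ORC6, the smallest ORC subunit (chromosome 16, 46689643 to 46698394, GRCh38), was at 53.5, 40.8 and 36.1 CPM with FBS and at 19.3, 33.7 and 19.6 CPM without. The highest starved library lay just under the lowest FBS library, and the group means were 43.4 ± 8.97 and 24.2 ± 8.24 CPM (SD, n = 3 each), a 1.80-fold lower level. The log2 fold change was -0.85 (95% interval -1.51 to -0.18; edgeR adjusted p = 0.356), with values from -1.17 to -0.67 when 1 library at a time was left out. The other ORC members did not separate: ORC1, the ATPase subunit that is made in a cell cycle dependent manner, had a log2 fold change of 0.13 and ORC2, a core subunit, -0.56. ORC2 (chromosome 2, 200908973 to 200963680) was at 20.2, 15.2 and 17.8 CPM with FBS and at 5.57, 8.18 and 22.2 CPM without serum. Starved replicates 1 and 2 lay below every FBS library and starved replicate 3 above all of them. Without starved replicate 3 its log2 fold change was -1.37 and ORC2 passed, with an edgeR adjusted p of 0.0458, the only member to do so, at a background of 1.81% of genes. Corrected for GC content and length, and still without that library, the value was -0.82 and the edgeR adjusted p was 0.18.

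The loaders and their inhibitor spread widely inside the starved group. CDT1, which brings MCM2-7 to ORC and was the most abundant licensing transcript, was at 279, 356 and 438 CPM with FBS and at 546, 357 and 311 CPM without. Starved replicate 1 was the highest of all 6 and the groups overlapped (log2 fold change 0.18, 95% interval -0.50 to 0.85). GMNN, the inhibitor, was at 47.3, 27.9 and 31.5 CPM with FBS and at 18.4, 29.4 and 46.5 CPM without. Here starved replicate 1 was the lowest library and replicate 3 close to the highest (log2 fold change -0.18, 95% interval -0.91 to 0.56). CDC6, the ATPase that completes the ORC ring, was at 87.9, 58.5 and 73.4 CPM with FBS and at 42.8, 71.4 and 76.9 CPM without, again lowest in starved replicate 1 (log2 fold change -0.20). After the GC and length correction GMNN turned from -0.18 to 0.38 (95% interval -0.09 to 0.85), while CDT1 went from 0.18 to 0.09 and CDC6 from -0.20 to -0.09.

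None of the 6 MCM2-7 helicase subunits passed the test, and for all 6 the interval excluded a 2-fold change either way. MCM3 (chromosome 6, 52264009 to 52284881) was at 148, 147 and 164 CPM with FBS and at 198, 192 and 182 CPM without. All 3 starved libraries were above all 3 FBS libraries, with group means of 153 ± 9.25 and 190 ± 8.17 CPM (SD, n = 3 each). The difference did not pass the test (log2 fold change 0.32, 95% interval -0.27 to 0.90; edgeR adjusted p = 0.747), and it lay between 0.29 and 0.37 with any 1 library left out. MCM7, the most abundant subunit per length (chromosome 7, 100092728 to 100101940), was at 509, 687 and 717 CPM with FBS and at 829, 593 and 444 CPM without. The starved libraries spanned the whole FBS range on both sides, so that the means were close at 638 ± 113 and 622 ± 194 CPM (log2 fold change -0.04). MCM2 had the largest log2 fold change of the 6, 0.32, from 257, 295 and 363 CPM with FBS and 515, 305 and 322 CPM without. That value rested on starved replicate 1, and without it the log2 fold change was 0.06. MCM4, MCM5 and MCM6 had log2 fold changes of -0.06, 0.13 and 0.00. Part of MCM7's exonic length (8.94%) is shared with AP4M1 on the opposite strand, and 22.7% of that of MCM2 with AC023593.1, but these neighbours held 3037 and 31 counts against 65651 and 36036 for the 2 MCM genes.

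Among the factors that activate the helicase, 5 of 6 had a log2 fold change below 0, with a median of -0.20 and none past the test. CDC45, which bridges MCM2-7 and GINS (chromosome 22, 19479459 to 19520612), was at 71.1, 71.3 and 71.7 CPM with FBS and at 64.8, 60.3 and 50.3 CPM without. The FBS libraries were within 1 CPM of each other and all 3 starved libraries lay below them, at means of 71.4 ± 0.307 and 58.4 ± 7.41 CPM (SD, n = 3 each). The log2 fold change was -0.29 (95% interval -0.86 to 0.28; edgeR adjusted p = 0.767), and with 1 library left out it lay between -0.35 and -0.19. GINS2, the most abundant of the 4 GINS subunits, was at 106, 104 and 160 CPM with FBS and at 150, 103 and 91.4 CPM without (log2 fold change -0.10). Starved replicate 1 lay inside the FBS range of GINS2 and the other 2 starved libraries below it, replicate 2 by less than 1 CPM. GINS1, GINS3 and GINS4 had log2 fold changes of -0.26, -0.14 and 0.06, and GINS1 was lowest in starved replicate 1, at 24.3 CPM against 45.3 to 59.0 CPM in the other 5 libraries. MCM10, which binds MCM2-7 and CDC45, was at 18.7, 12.9 and 12.5 CPM with FBS and at 10.5, 7.79 and 14.97 CPM without. Starved replicates 1 and 2 lay below all FBS libraries and replicate 3 within them (log2 fold change -0.41, 95% interval -1.18 to 0.36). After the GC and length correction all 6 of these genes were below 0, between -0.34 and -0.04.

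Of the clamp and its loaders, 5 of 6 were below 0, with a median of -0.17. That count did not hold with the GC and length correction, where 3 were above and 3 below 0, with a median of 0.02. Without starved replicate 1 the split was also 3 and 3, with a median of -0.09. PCNA, the sliding clamp (chromosome 20, 5114953 to 5126626), was at 247, 179 and 219 CPM with FBS and at 120, 193 and 241 CPM without. Only starved replicate 1 lay outside the FBS range, and the log2 fold change of -0.22 (95% interval -0.88 to 0.44) became 0.03 without that library and 0.22 with the GC and length correction. RFC3, a subunit of the clamp loader (chromosome 13, 33818049 to 33966558), was at 24.2, 15.4 and 16.6 CPM with FBS and at 4.96, 11.4 and 16.4 CPM without. Its starved replicate 3 lay inside the FBS range while the other starved libraries were below it (log2 fold change -0.77, 95% interval -1.63 to 0.08; edgeR adjusted p = 0.532). The RFC3 value was -0.34 once GC content and length were corrected for. DSCC1, a subunit of the alternative loader built around CHTF18, was likewise lowest in starved replicates 1 and 2, at 4.15 and 7.30 CPM, with 15.6 CPM in starved replicate 3 and 10.7 to 17.3 CPM with FBS, and had a log2 fold change of -0.57. RFC2, RFC4 and RFC5, the other loader subunits listed, had log2 fold changes of -0.11, 0.13 and -0.01. More abundant opposite-strand neighbours share exonic bases with RFC4 (EIF4A2, 0.701% of its length, 6514 counts against 1268) and RFC5 (WSB2, 186 bases, 11202 counts against 7749).

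All 7 polymerase and primase genes had a log2 fold change above 0, with a median of 0.18. That count did not hold when starved replicate 1 or 3 was left out. POLE, the catalytic subunit of the leading-strand polymerase epsilon (chromosome 12, 132623753 to 132687365), was at 117, 186 and 183 CPM with FBS and at 282, 228 and 316 CPM without. Every starved library was above every FBS library, with group means of 162 ± 38.6 and 275 ± 44.3 CPM (SD, n = 3 each), a 1.70-fold higher level. The log2 fold change was 0.77 (95% interval 0.13 to 1.40; edgeR adjusted p = 0.391), from 0.57 to 0.89 with 1 library left out, and 0.39 (95% interval -0.03 to 0.81) with the GC and length correction. POLD1, the catalytic subunit of the lagging-strand polymerase delta, was the most abundant gene of this group per gene length. In CPM it stood below POLE in starved replicates 2 and 3. POLD1 was at 159, 269 and 275 CPM with FBS and at 344, 199 and 213 CPM without, with overlapping groups (log2 fold change 0.10). The 4 low-expressed genes PRIM1 (the catalytic primase subunit), POLE2 (the second polymerase epsilon subunit), POLA1 (the catalytic subunit of polymerase alpha) and POLD3 (a polymerase delta subunit) were each highest in starved replicate 3. PRIM1 was at 16.2 CPM there and at 5.78 to 8.64 CPM in the other 5 libraries, and POLE2 at 13.2 against 3.51 to 7.72 CPM. Without starved replicate 3 these 4 genes were below 0, at -0.33, -0.45, -0.31 and -0.29, and the median of the 7 was -0.29, with 3 above and 4 below 0. POLA2, the second polymerase alpha subunit, went the other way among libraries, from 7.18 CPM in starved replicate 3 to 20.7 CPM in starved replicate 1 (log2 fold change 0.01). Without starved replicate 1, POLA2 and POLD1 were below 0, at -0.43 and -0.17, and the other 5 genes above. With the GC and length correction 5 of the 7 were above and 2 below 0, with a median of 0.37. In the corrected fit without starved replicate 3, 6 were above and 1 below 0, with a median of 0.22. A same-strand gene, AP000944.2, covers 35.1% of the exonic length of POLA2 and held 53 counts against 1385. PRIM1 shares 33 exonic bases (1.35%) with NACA on the same strand, which held 19101 counts against 979, so reads in that stretch could belong to either gene.

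The genes of Okazaki fragment processing were both slightly above 0. FEN1, the flap endonuclease (chromosome 11, 61792637 to 61797244), was at 150, 108 and 129 CPM with FBS and at 185, 141 and 119 CPM without (log2 fold change 0.20, 95% interval -0.42 to 0.82). LIG1, the ligase that seals the fragments (chromosome 19, 48115445 to 48170603), was at 96.4, 146 and 134 CPM with FBS and at 173, 143 and 126 CPM without (log2 fold change 0.23, 95% interval -0.38 to 0.85). In both genes only starved replicate 1 exceeded the FBS range, and both intervals excluded a 2-fold change. FEN1 shares 1.98% of its exonic length with FADS2 on the same strand, which held 47920 counts against 14766.

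Among the genes of nucleotide supply, 4 of 5 were below 0, with a median of -0.15. TK1, thymidine kinase of the salvage pathway and the most abundant of all 42 members (chromosome 17, 78174075 to 78187233), was at 960, 1306 and 1357 CPM with FBS and at 1484, 1147 and 638 CPM without. The starved libraries again lay on both sides of the FBS range (log2 fold change -0.15, 95% interval -0.89 to 0.59). DUT, the enzyme that removes dUTP (chromosome 15, 48331011 to 48343373), was at 117, 83.2 and 68.5 CPM with FBS and at 50.3, 71.7 and 57.9 CPM without. A single starved library, replicate 2, reached into the FBS range, and the log2 fold change was -0.58 (95% interval -1.20 to 0.05; edgeR adjusted p = 0.52), with -0.73 to -0.34 when 1 library was left out. RRM2, the regulated small subunit of ribonucleotide reductase, was at 100.4, 74.5 and 77.7 CPM with FBS and at 70.0, 77.6 and 96.5 CPM without. These groups overlapped almost fully (log2 fold change -0.05, 95% interval -0.64 to 0.54). RRM1, the large subunit, ran from 45.3 CPM in starved replicate 1 to 141 CPM in starved replicate 3, so that its log2 fold change of 0.03 became -0.55 without replicate 3 and 0.35 without replicate 1. TYMS, thymidylate synthase, had a log2 fold change of -0.32; the antisense gene ENOSF1 covers 39.2% of its exonic length, with 89 counts against 5273, and the sources used here do not say whether reads were counted by strand.

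The chromatin factors were all below 0. UHRF1, which reads hemimethylated DNA behind the fork and brings in DNA methyltransferase DNMT1 (chromosome 19, 4903080 to 4962154), was at 160, 111 and 88.9 CPM with FBS and at 76.5, 95.3 and 86.6 CPM without. FBS replicate 1 was the highest library, and starved replicate 2 lay inside the FBS range (log2 fold change -0.48, 95% interval -1.10 to 0.15; edgeR adjusted p = 0.6). Without FBS replicate 1 the UHRF1 value was -0.22. CHAF1A and CHAF1B, the subunits of chromatin assembly factor 1 that deposit histones on new DNA, had log2 fold changes of -0.15 and -0.20. CLSPN encodes claspin, the adaptor between stalled forks and the CHK1 kinase, and was the member with the lowest level per length. CLSPN was at 5.84, 3.81 and 4.87 CPM with FBS and at 3.53, 3.62 and 10.6 CPM without, highest in starved replicate 3 and lowest in the other starved libraries. Its log2 fold change of 0.30 became -0.44 without that replicate.

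Levels between genes were compared on the deposited FPKM values, which divide counts by gene length. TK1 stood first at a mean of 602 FPKM over the 6 libraries, followed by MCM7 at 140.1, PCNA at 132, RFC2 at 113 and CDT1 at 112 FPKM, and CLSPN was last at 0.969 FPKM. Subunits that act in fixed numbers per complex differed in FPKM, which is not corrected for GC content. Transcript GC content was 55.3% in MCM7 and 42.9% in MCM6, 52.9% in RFC2 and 42.1% in RFC3, and 64.6% in POLD1 and 45.4% in POLD3. MCM2, at 58.3%, stood below MCM7. The parts of GC content and of the gene length used in the orders that follow were not tested. Within MCM2-7 the mean level ran from MCM7 through MCM2 (68.2 FPKM), MCM5 (56.0), MCM3 (45.9) and MCM4 (36.4) to MCM6 (22.5 FPKM). In FPKM, MCM7 was above MCM2, MCM2 above MCM5 and MCM4 above MCM6 in all 6 libraries. MCM5 was above MCM3 in 4 and MCM3 above MCM4 in 5, so those neighbours were not in a fixed order. The order of MCM2 and MCM5 rests on the gene lengths used, 4902 and 7338 bases. In CPM the mean of MCM5 was above that of MCM2, at 402 against 305 with FBS and 440 against 381 without. Among licensing genes CDT1 was far above ORC1 (15.3 FPKM), and ORC1, GMNN (13.2) and CDC6 (12.01 FPKM) changed places between libraries. RFC2 exceeded RFC5 (21.4 FPKM) and RFC5 exceeded RFC3 (5.03 FPKM) in every library without overlap of their ranges. POLD1 (48.1 FPKM) and POLE (12.8 FPKM) were above their accessory subunits POLD3 (3.14) and POLE2 (2.09 FPKM). Of the nucleotide supply genes, DUT, RRM1 and TYMS lay between 19.3 and 19.8 FPKM and could not be ordered.

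**Figure D3:**
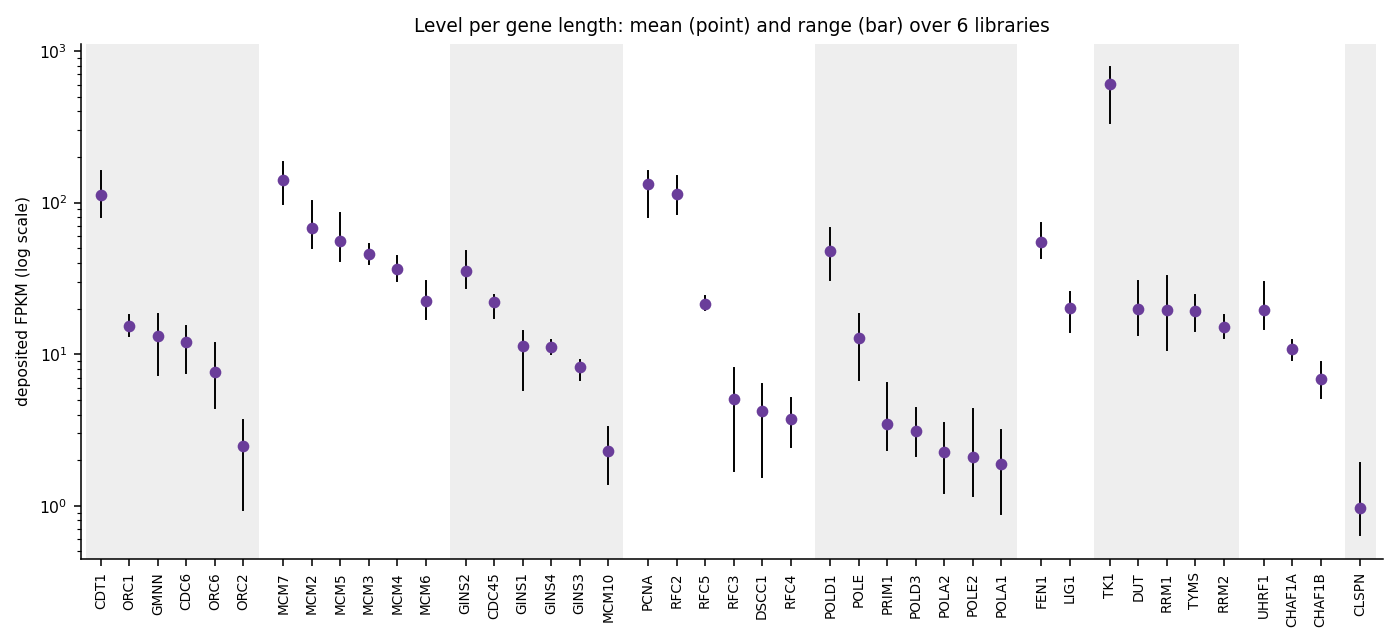
Deposited FPKM of each gene on a log axis, ordered by mean within sub-complex; points are means and bars the lowest to highest of the 6 libraries. TK1 is highest at a mean of 602 FPKM and CLSPN lowest at 0.969 FPKM.

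Ratios of 6 pairs of partner genes were taken inside each library. Their SD was larger among starved than among FBS libraries in all 6. For single genes, the SD of log2 CPM was larger among starved libraries in 69.6% of all genes tested. The partners differed in GC content, at 65.8% and 41.4% in CDT1 and GMNN but 44.4% and 48.0% in RRM1 and RRM2. The ratios were not corrected for GC content, and its part in them was not tested. CDT1 to GMNN in FPKM was 4.38, 9.47 and 10.3 with FBS and 22.1, 9.01 and 4.95 without serum. The ratio was thus both highest and near its lowest inside the starved group. RRM1 to RRM2 was 1.17, 1.28 and 1.37 with FBS and 0.825, 1.12 and 1.86 without, and MCM7 to MCM6 was 4.31, 8.27 and 7.03 with FBS and 10.9, 6.57 and 3.23 without. For RRM1 to RRM2 and MCM7 to MCM6, starved replicates 1 and 3 lay on opposite sides of the FBS libraries. POLD1 to POLD3 was 15.6 ± 6.20 with FBS and 18.2 ± 12.03 without, and POLA1 to PRIM1 was 0.57 ± 0.0498 and 0.542 ± 0.194 (SD, n = 3 each). POLE to POLE2 was 5.99 ± 3.28 with FBS and 8.86 ± 4.28 without, so that relative to the mean its spread was the larger one with FBS.

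The spread inside the starved group moved with the GC content of the transcripts, which ran from 38.4% in POLE2 to 65.8% in CDT1. The SD of log2 CPM was larger among starved than among FBS libraries in 32 of 42 members (76.2%, against 69.6% of all genes), with a median of 0.43 against 0.27. Starved replicate 1 was the highest or lowest of the 6 libraries in 31 of 42 members, and FBS replicate 1 and starved replicate 3 in 20 each. Across the 42 members, which share the libraries, the Spearman correlation between GC content and the deviation of a library from the gene mean was 0.82 in starved replicate 1, -0.71 in starved replicate 3 and -0.67 in FBS replicate 1. In FBS replicates 2 and 3 and starved replicate 2 it was 0.27, 0.09 and 0.26. Over all genes the trend had the same sign in each library, for example 0.61 in starved replicate 1 and -0.40 in starved replicate 3. The 14 members of lowest GC, among them GMNN, RFC3, ORC2, POLE2 and PRIM1, had a median deviation of -0.74 in starved replicate 1 and 0.58 in starved replicate 3. For the 14 members of highest GC, among them CDT1, POLD1, TK1, LIG1 and MCM2, these medians were 0.42 and -0.21. GC content and any difference in cell state between these libraries cannot be told apart from the labels.

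**Figure D4:**
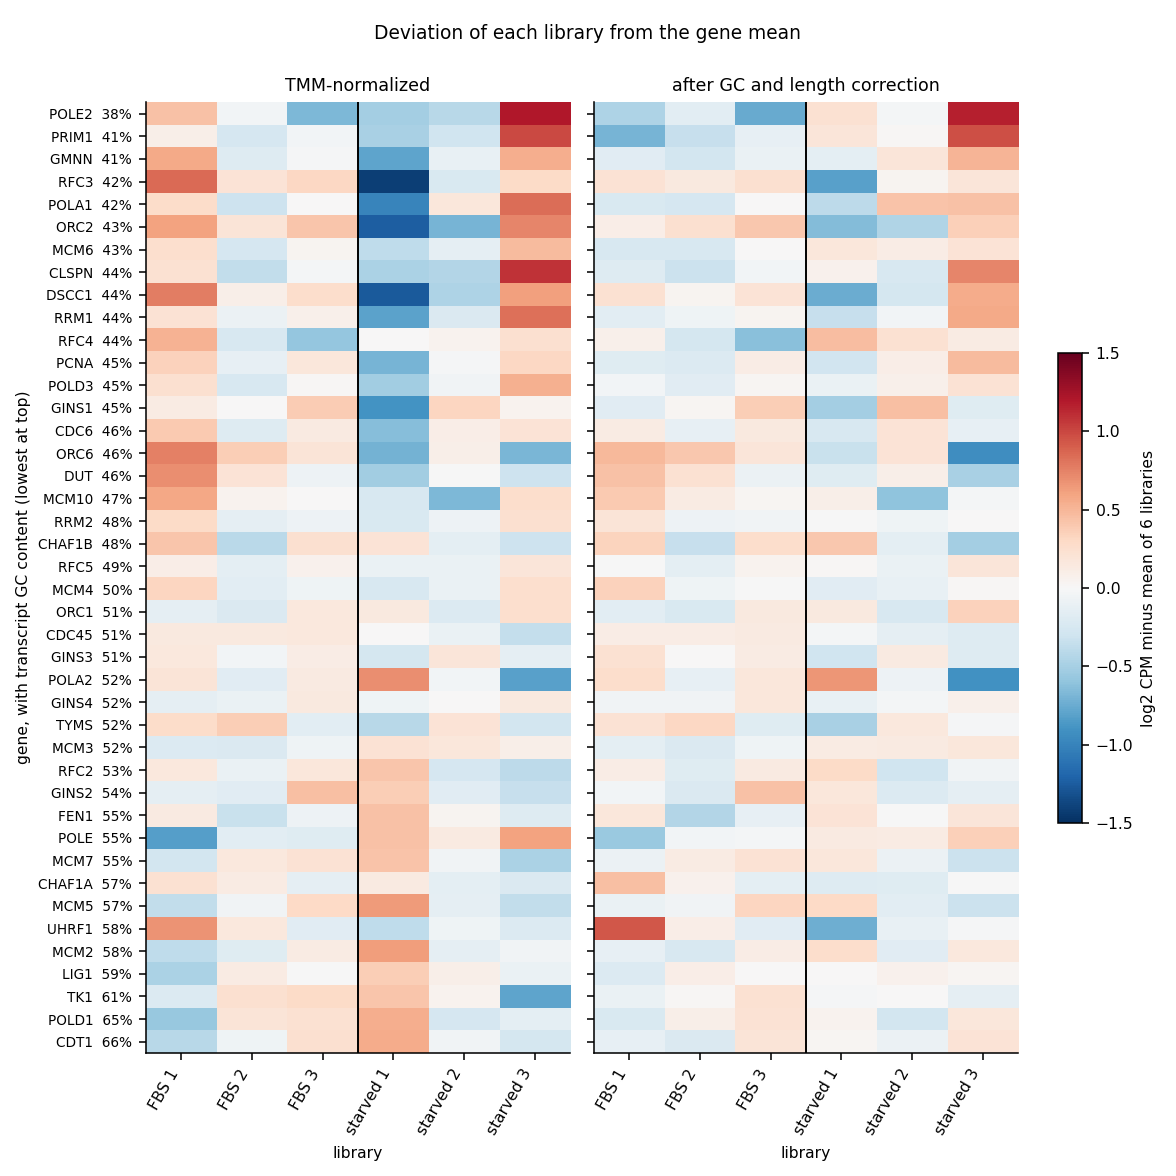
Deviation of each library from the gene's mean log2 CPM (red above, blue below), with genes ordered by transcript GC content from POLE2 at the top to CDT1 at the bottom, before (left) and after (right) the GC and length correction. In the left panel starved replicate 1 passes from blue at low GC to red at high GC and starved replicate 3 shows the opposite order, with Spearman correlations of 0.82 and -0.71.

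Leaving out starved replicate 3 moved the members by their GC content. Without it the median log2 fold change was -0.19, with 27 of 42 members below 0, and 13 of the 14 members of lowest GC but 2 of the 14 of highest GC were below 0. The Spearman correlation between GC content and the log2 fold change over the 42 members was 0.19 with all libraries and 0.76 without starved replicate 3. In that fit 6 members (14.3%), namely ORC2, ORC6, RFC3, DSCC1, POLE and RRM1, had an unadjusted p under 0.05, against 16.9% of all genes. Without starved replicate 1 the median was 0.03, with 22 members above and 20 below 0, and 0 members passed at a background of 0.454%. Of the 42 members, 24 changed the sign of their log2 fold change in at least 1 of the 6 fits that leave out a library.

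**Figure D5:**
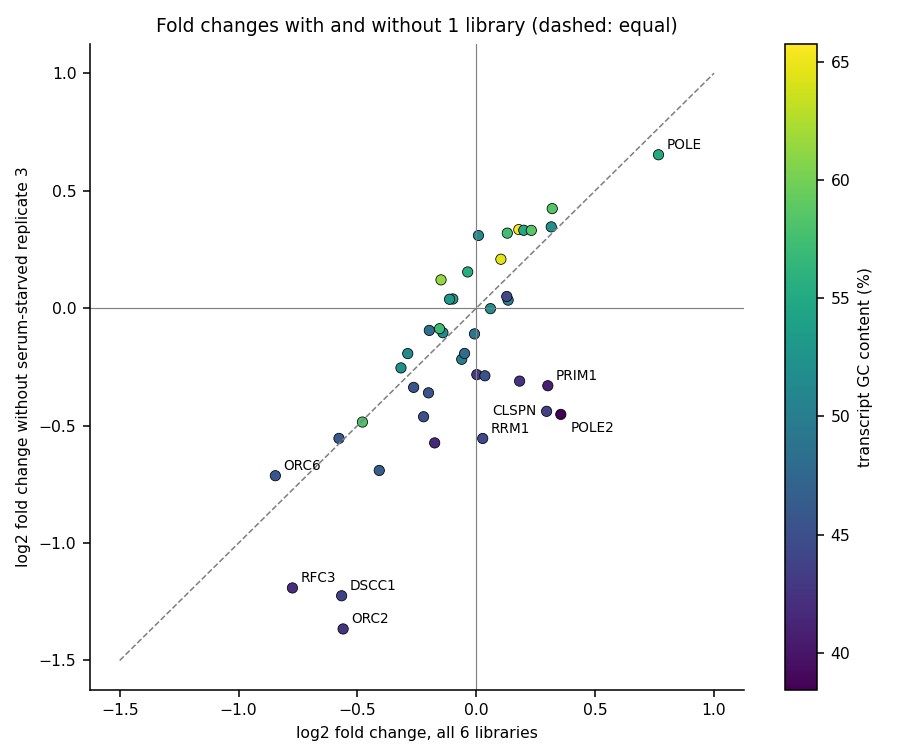
Log2 fold change of the 42 genes with all 6 libraries (horizontal) and without serum-starved replicate 3 (vertical), coloured by transcript GC content; the dashed line marks equal values. Low-GC genes such as ORC2 (-0.56 and -1.37) and POLE2 (0.36 and -0.45) lie below the line, and high-GC genes such as CDT1 (0.18 and 0.33) and MCM2 (0.32 and 0.42) above it, with POLE (0.77 and 0.65) an exception.

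When each library was corrected for GC content and gene length the intervals narrowed and the members stayed centred near 0. The median log2 fold change was -0.04, the median half-width of the interval 0.45, and the interval stayed between -1 and 1 for 35 of 42 members (83.3%), against 49.1% of all genes. No member passed in edgeR (0 of 42, at a background of 0.69%), and without starved replicate 3 as well the count was 0 at a background of 0.67%. At an unadjusted p under 0.05 there were 4 members (9.52%, against 15.5% of all genes): ORC6 at a log2 fold change of -0.65, UHRF1 at -0.62, PRIM1 at 0.84 and POLE2 at 1.01. PRIM1 and POLE2 were still highest in starved replicate 3, and without that library their corrected values were 0.45 and 0.50. ORC6 moved to -0.41 (edgeR adjusted p = 0.43) and UHRF1 to -0.77 (edgeR adjusted p = 0.266) in that fit. The sign of 7 members differed from that of the uncorrected fit. After the correction, which was fitted over all genes, the Spearman correlation between GC content and the library deviation was taken again over the 42 members. It was 0.25, -0.29 and -0.46 in starved replicates 1, 2 and 3, and 0.14, 0.20 and 0.18 in FBS replicates 1, 2 and 3. A GC trend thus remained among the members, largest in starved replicate 3.

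A further 40 genes of the same pathway, such as other ORC, polymerase and nucleotide enzymes, also gave a count of 0 past the test in edgeR, and 0 in DESeq2 and limma-voom. Of these, 14 were above and 26 below 0 (35.0% above, against 48.5% of all genes tested), with a median of -0.30. The groups did not overlap for 6 of the 40 and an unadjusted p was under 0.05 for 4, where the shares over all genes were 17.7% and 10.4%. The median of the 40 was -0.14 after the GC and length correction. The 3 with the smallest p were DCK, deoxycytidine kinase of the salvage pathway, ASF1A, a histone chaperone, and ORC3, a core ORC subunit. DCK was at 36.5, 26.3 and 30.8 CPM with FBS and at 7.68, 14.1 and 21.0 CPM without, and no library of one group reached the other (log2 fold change -1.13; edgeR adjusted p = 0.289). ASF1A had a log2 fold change of -1.29 (edgeR adjusted p = 0.321) and ORC3 of -1.25 (edgeR adjusted p = 0.368). Without starved replicate 3, 2 of the 40 genes passed, where 1.81% of all genes did. They were DCK and ORC3, at edgeR adjusted p of 0.0148 and 0.0365. Neither passed with the correction added (edgeR adjusted p of 0.198 each). The transcripts of these 3 genes were GC-poor, at 39.3% to 39.7%. The remaining gene under an unadjusted p of 0.05 was TICRR, a helicase activation factor, at a log2 fold change of 0.87 (edgeR adjusted p = 0.375), named after its value was seen.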

How the data were processed

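Per the labels' protocols, total RNA of the 6 Ovcar8 samples was cleaned with a DNase step, made into NEBNext Ultra 2 libraries and sequenced on a NovaSeq. The submitters' processing notes name STAR 2.6.1, DESeq2 and the build GRCh38; the counting tool and its strand setting were not given in the sources used here. As deposited by the authors, the table gives whole-number counts and FPKM per gene and library; in the file the FPKM equal count over length with a between-library scaling. All 58735 gene IDs and positions matched GENCODE 29.

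Samples were grouped by title. Genes were kept by filterByExpr (minimum count 10, minimum total 15; 13772 genes), scaled by TMM and compared with edgeR 4.0.16 (glmQLFit, robust, glmQLFTest, under R 4.3.3), with p-values adjusted by Benjamini and Hochberg over all genes and a threshold of 0.05. Intervals are 95%. The biological coefficient of variation was 36.3%. The GC and length correction fitted splines (5 degrees of freedom) of transcript GC content, from GENCODE 29 transcripts, and gene length per library and entered them as offsets. The test was run on simulated data first. Alternatives were RLE, library totals only, 2 other filters, DESeq2 1.42.0, limma-voom and limma on log2(FPKM + 1) or log2(FPKM + 0.1) (limma 3.58.1), no robust estimation, a replicate block and each library left out.

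The members and gene lists were chosen with earlier results of these data known. Values of every library are given for members whose groups did not overlap, for the most abundant member and that with the largest log2 fold change in each sub-complex, and for CDT1, GMNN, CDC6, PCNA, RRM2 and TK1; other members named with library values, such as ORC2, were chosen after their values were seen. No label names molecular identifiers, so reads are not taken as independent molecules.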

Additional observations from a re-analysis of the deposited data

How the results depend on the processing

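The count of 0 members past the test held under every alternative run except the fits without 1 library, where it was 0 to 1 (ORC2, without serum-starved replicate 3), and it was 2 at an unadjusted p under 0.05. The members' median log2 fold change of -0.04 stayed within the spread between libraries (SD 0.169) under all 20 alternatives, from -0.193 to 0.025 with 1 library left out. The count over all genes, 39 in edgeR, moved more. It was 25 with library totals only, 127 without a low-count filter, 160 in DESeq2, 95 with the GC and length correction and also 95 when serum-starved replicate 3 was left out as well, and 1430 at an unadjusted p under 0.05. With 1 library left out it ran from 4 to 257: 4, 14 and 20 without FBS replicates 1, 2 and 3, and 65, 16 and 257 without serum-starved replicates 1, 2 and 3. With limma it was 22 on log2(FPKM + 1), 19 on log2(FPKM + 0.1) and 0 on log2(FPKM + 1) without a filter, where 1534 genes had an unadjusted p under 0.05. The cause of these moves was not tested.

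Same-numbered samples of the 2 groups did not deviate together (correlations of -0.257, 0.097 and -0.082). With 3 libraries a group that differ with GC content, these values cannot tell whether same-numbered samples were handled together. The titles give only a replicate number, and the main comparison was unpaired. With the replicate block 0 members and 43 genes passed and the members' median was -0.085; with the block and the GC and length correction together 102 genes passed. The spread between 3 libraries a group limits what could be seen: a 2-fold change lay inside the interval of 12 members.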
